A study of Mus musculus with 18 samples.

Results

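RNA of cultured pro-B cells without Pax5 was compared with that of wild-type pro-B cells, across all genes. Pax5-KO cells and WT cells had 3 RNA libraries each, so that 6 of the 18 libraries of the study entered the comparison. A further 3 RNA libraries from cells without Ebf1 (Ebf1-KO) shared the estimate of the spread between libraries and gave a second comparison, Pax5-KO against Ebf1-KO. The other 9 libraries measured accessible chromatin (ATAC). All cells came from fetal liver of mice on a C57BL6/J background. They were expanded on OP9 stromal cells in medium with interleukin-7, KIT ligand and FLT3 ligand, each at 10 ng/ml, and the labels call all of them pro-B cells. OP9 cells are of mouse origin, so their reads would map to the same genome. Pax5-KO cells carried a Pax5 knock-out, Ebf1-KO cells an Ebf1 knock-out, and WT cells neither. None of the sources used here gives the deleted part of each gene, the age of the fetuses or the number of animals or cultures behind the 3 libraries of a group, so the p-values below measure only the spread between these libraries.

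PAX5 is a transcription factor of the paired-box family that is made throughout the B lineage until plasma cell differentiation. In mouse it is required for commitment: progenitors that lack it arrest at an early pro-B stage, rearrange the DH and JH segments of the heavy-chain locus but few distal VH segments, and can still give rise to other blood cells. PAX5 is known both to activate B cell genes, such as those of the pre-B cell receptor, and to repress genes of other lineages. EBF1 acts upstream of and together with PAX5, and each supports the expression of the other.

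The deposited gene table held 24072 genes as exon reads per 10000000 mapped reads. Values below are these numbers after multiplication by 1 scaling factor per library (TMM, the trimmed mean of log ratios between libraries), and are given without a unit as reads per 10000000. They were not divided by gene length, so levels are compared between groups and not between genes. RNA libraries held 15.6 M to 63.6 M exon reads, and log2 values correlated between libraries of a group with r from 0.990 to 0.996. Exon reads were 55.5 to 71.4% of mapped reads in Pax5-KO and 47.0 to 59.3% in WT. Log2 fold changes (Pax5-KO over WT) were taken after adding 1 to each value, so that changes of genes with low values are understated. A gene was called higher or lower at an adjusted p under 0.05 (limma with Benjamini-Hochberg adjustment over the 12839 genes tested, two-sided). A value with ± is a mean with its SD over 3 libraries.

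Pax5 itself, at chr4:44531506-44710440 on the minus strand (build mm10), had 105, 96.1 and 107 in the Pax5-KO libraries, against 1704, 1825 and 1692 in the WT libraries (log2 fold change -4.07, SE 0.17, adjusted p = 1.29e-09). Pax5 transcripts were thus reduced and still counted in each Pax5-KO library, and counts summed over all exons cannot show whether the deleted part was missing. The pro-B cell markers Cd79a, Igll1, Vpreb1, Ebf1, Il7r and Rag1 were detected in all libraries of both groups. Of the markers checked for other cells, Cd3e, Ncr1, Ctsg, Hba-a1, Dcn, Alb and Apoa1 had no read in any Pax5-KO library, Elane had 1 read over them, and Cd3d averaged 0.833 in Pax5-KO. Other markers of dendritic, natural killer and myeloid cells were counted in every Pax5-KO library. Siglech of dendritic cells averaged 79.9 ± 16.1 in Pax5-KO and 0.176 ± 0.182 in WT, Klrd1 of natural killer cells 61.5 ± 4.31 in Pax5-KO and 6.25 ± 0.409 in WT, Mpo of myeloid cells 38.4 ± 4.40 in Pax5-KO and 0.121 ± 0.210 in WT and Itgam 26.2 ± 3.09 in Pax5-KO and 6.66 ± 4.67 in WT, and all 4 were called higher. The X-linked Xist and the Y-linked Uty, Kdm5d, Eif2s3y and Ddx3y were not called between Pax5-KO and WT, but with the replicate number as a block Eif2s3y was lower (log2 fold change -0.49, adjusted p = 0.0335). Of the stromal genes, the collagen gene Col1a2 had 4.91 ± 4.18 in Pax5-KO and 6.30 ± 7.03 in WT and was not called (adjusted p = 0.981), whereas Pdgfrb, a receptor of pericytes and fibroblasts, had 31.7, 22.6 and 19.3 in the Pax5-KO libraries, against 0, 1.58 and 0.166 in the WT libraries (log2 fold change 4.12, SE 0.32, adjusted p = 4.1e-07). Whether stromal cells of the culture had a part in these reads was not tested. Changes of bulk RNA cannot tell fewer cells of a type from less RNA per cell.

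About as many genes were higher as were lower in Pax5-KO. Of 12839 genes tested, 3324 were called higher (25.9%) and 3075 lower (24.0%), together 6399 or 49.8%. Calls of over 2-fold numbered 1559 higher and 1112 lower, and calls of over 8-fold 507 higher and 276 lower. The 3 Pax5-KO libraries lay wholly above or below the 3 WT libraries for 57.2% of tested genes. With the scaling of the deposited table, which divides by all mapped reads, the split was 4451 higher and 1525 lower, and the median log2 fold change of all genes was 0.28, against 0.02 here. In the authors' deposited tables of transcripts changed over 2-fold, 1949 genes were listed as higher and 1529 as lower. Of the 1559 genes called higher over 2-fold here, 99.9% were in the authors' deposited table of higher transcripts, as were 99.2% of the 1112 lower genes in the table of lower ones. In the other direction, 1681 of the 1949 genes in the authors' deposited table of higher transcripts and 1179 of the 1529 in the lower one passed the filter on low counts here, and 98.4% and 99.0% of these were called in the same direction.

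**Figure D1:**
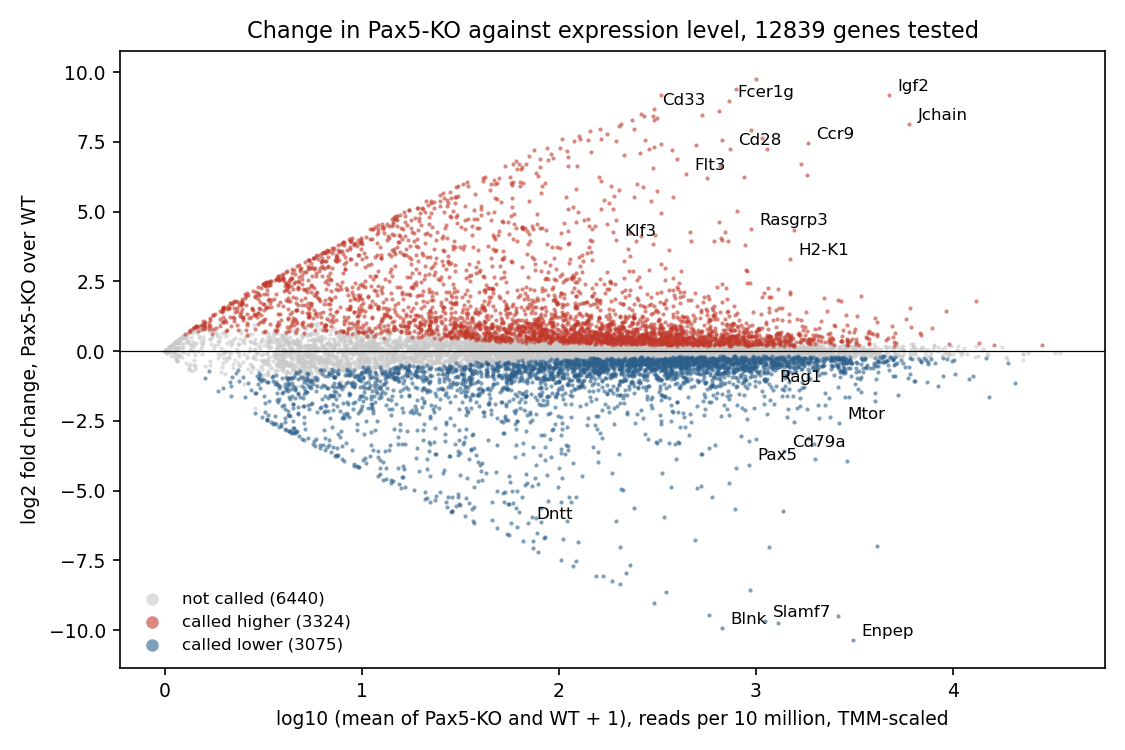
Log2 fold change of Pax5-KO over WT for each of the 12839 genes tested (vertical axis) against the log10 of the mean level of both groups + 1 (horizontal axis), with 1 point per gene coloured by its call and some of the genes described in the text labelled. Enpep lies lowest at -10.35, and genes with large changes are found in both directions at high levels.

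The largest falls included surface proteins and signalling genes of pro-B and pre-B cells. Enpep, which encodes the aminopeptidase known as BP-1 on pre-B cells, had 5.13, 2.16 and 4.58 in the Pax5-KO libraries, against 6259, 6512 and 5838 in the WT libraries (log2 fold change -10.35, SE 0.22, adjusted p = 6.64e-12). Blnk, the adaptor that links the pre-B cell receptor to its downstream enzymes, had 0, 0.309 and 0.934 in the Pax5-KO libraries, against 1732, 1131 and 1158 in the WT libraries (log2 fold change -9.91, SE 0.27, adjusted p = 3.36e-11). In both genes every Pax5-KO library was close to 0 and the groups were far apart. Slamf7, a receptor of the SLAM family, had 1.73 ± 0.461 in Pax5-KO and 2215 ± 232 in WT (log2 fold change -9.67), and the scavenger receptor Cd36 had 2.13 ± 1.10 in Pax5-KO and 2576 ± 175 in WT (-9.74). Siglecg, an inhibitory lectin of B cells, had 0.809 ± 0.460 in Pax5-KO and 697 ± 53.4 in WT (-8.62). Several of the 15 largest falls were of genes better known from other tissues. Among them were the alkaline phosphatase gene Alpl (0.668 ± 0.499 in Pax5-KO and 1151 ± 4.01 in WT, log2 fold change -9.47), the hormone-binding protein gene Crhbp (3.95 ± 1.18 in Pax5-KO and 1854 ± 79 in WT, -8.58) and the adhesion receptor Adgrl2 (0.187 ± 0.323 in Pax5-KO and 602 ± 25.6 in WT, -9.02). The guidance gene Sema5b had 2 reads over the Pax5-KO libraries and was lower by a ratio of 1834 (95% exact counting interval 507 to 15151).

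The largest rises were of genes near 0 in WT. Igf2, the fetal growth factor, had 8442, 9976 and 10018 in the Pax5-KO libraries, against 13.5, 15 and 17.7 in the WT libraries (log2 fold change 9.18, SE 0.10, adjusted p = 4.95e-14). Fcer1g, the signalling chain shared by several Fc receptors, had 1232, 1335 and 1802 in the Pax5-KO libraries, against 1.09, 1.18 and 4.14 in the WT libraries (log2 fold change 8.97, SE 0.28, adjusted p = 1.18e-10). Cd33, a myeloid lectin, had 681, 564 and 572 in the Pax5-KO libraries, against 0.364, 0.394 and 0.663 in the WT libraries (log2 fold change 8.69, SE 0.14, adjusted p = 2.61e-12). The WT libraries were near 0 for Fcer1g and Cd33 and low for Igf2, far below every Pax5-KO library. The unnamed transcript 6330403A02Rik had the largest log2 fold change of all, on the scale with 1 added to each value. It had 2003 ± 68.5 in Pax5-KO and 1.46 ± 0.934 in WT (log2 fold change 9.76). The zinc finger gene Zfp760 followed with 1575 ± 303 in Pax5-KO and 1.53 ± 1.14 in WT (9.38). Transporters were among the 15 largest rises. Slc6a15, a carrier of neutral amino acids, had 654 ± 159 in Pax5-KO and 0.111 ± 0.191 in WT, a ratio of 3260.4 (95% exact counting interval 902 to 26926), and Slc16a10, a carrier of aromatic amino acids, had 1288 ± 187 in Pax5-KO and 2.62 ± 1.87 in WT (8.59). The calcium pump gene Atp2b4 had 1064 ± 201 in Pax5-KO and 1.98 ± 0.503 in WT (8.48). The kinase gene Cdk14 (8.49), the oxygen-sensing hydroxylase Egln3 (8.43), the glutamate receptor subunit Gria3 (8.27) and the phosphatase gene Ppm1h (8.13) were each between 368 and 637 in the Pax5-KO libraries and at most 1.49 in the WT libraries.

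**Figure D2:**
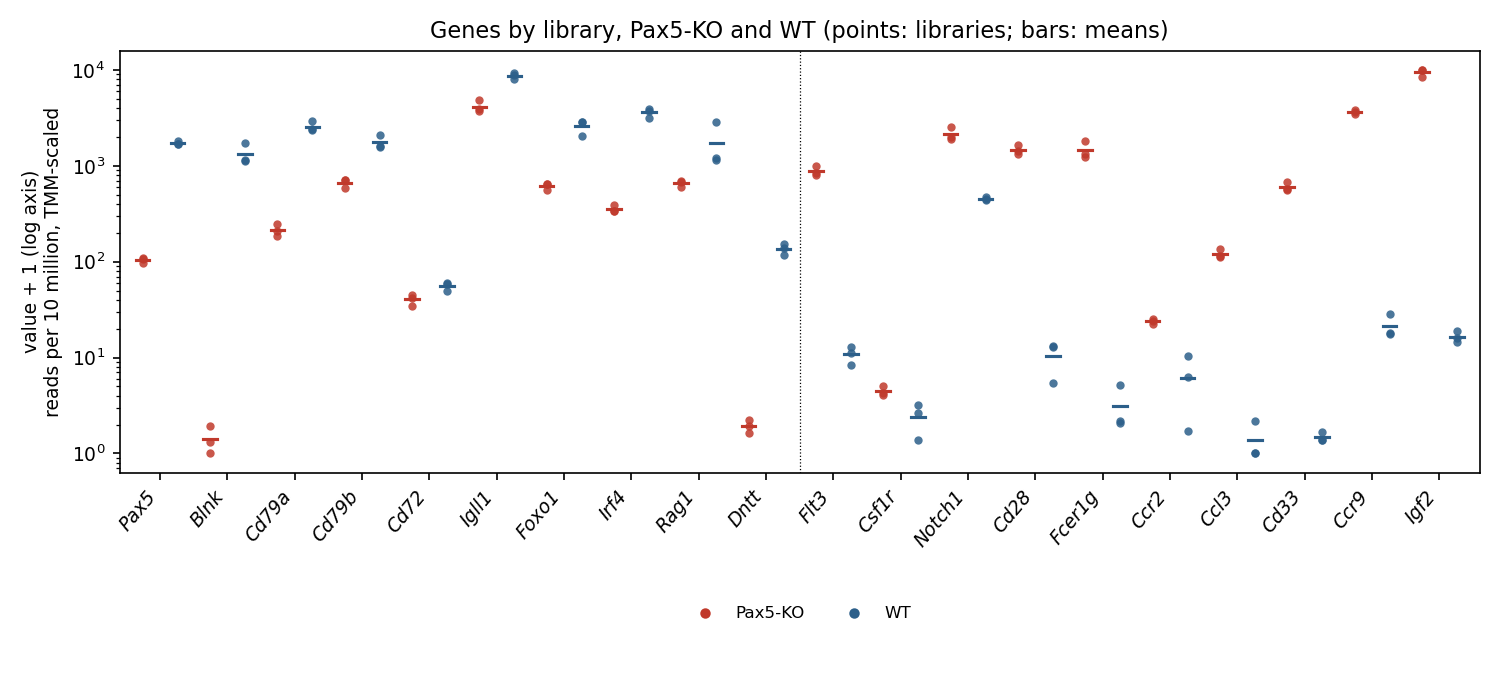
Value + 1 (reads per 10000000, TMM-scaled, log axis) of 20 genes in each library, with Pax5-KO left of WT for each gene, points for libraries and bars for means. Left of the dotted line are genes called lower in Pax5-KO and right of it genes called higher, and the 3 Pax5-KO libraries do not overlap the 3 WT libraries in any of them.

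The parts of the pre-B cell receptor fell by very different amounts. This receptor pairs the heavy chain with the surrogate light chain (VPREB and lambda5) and signals through CD79A and CD79B. Of 29 tested genes of the receptor and its signalling, 18 were called lower, 4 higher and 7 were not called, with a median log2 fold change of -0.70 (24.0% of all genes tested were called lower, and the median of all was 0.02). With the deposited scaling 14 were lower and the median was -0.43. Cd79a had 207, 185 and 246 in the Pax5-KO libraries, against 2901, 2437 and 2367 in the WT libraries (log2 fold change -3.59, SE 0.17, adjusted p = 4.39e-09). Cd79b had 713, 580.0 and 714 in the Pax5-KO libraries, against 2113, 1576 and 1613 in the WT libraries (log2 fold change -1.39, SE 0.13, adjusted p = 1.94e-06). Both signalling chains were lower in every Pax5-KO library, Cd79a by the larger fold. Genes of the surrogate light chain changed less. Igll1, which encodes lambda5, had 3926, 3700.0 and 4812 in the Pax5-KO libraries, against 9258, 8802 and 8028 in the WT libraries (log2 fold change -1.08, SE 0.11, adjusted p = 4.6e-06). Vpreb1 had 871, 756 and 1184 in the Pax5-KO libraries, against 1598, 1349 and 1548 in the WT libraries and was not called (log2 fold change -0.70, adjusted p = 0.137), but it was called with the replicate number as a block (adjusted p = 0.0332), with the 2 groups alone, with edgeR or DESeq2 on recovered reads, and without Ebf1-KO library 2 (0.00533). Vpreb2 had 270.1 ± 38.7 in Pax5-KO and 233 ± 12.9 in WT (adjusted p = 0.263), and reads can be shared between Vpreb1 and Vpreb2, whose sequences are alike. Vpreb3, by contrast, had 28.1, 25.6 and 44.8 in the Pax5-KO libraries, against 988, 907 and 1029.6 in the WT libraries (log2 fold change -4.89).

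Downstream of the receptor, Prkcb, a protein kinase C, had 1809.7 ± 125 in Pax5-KO and 6223 ± 433 in WT (log2 fold change -1.78), and the adaptor Pik3ap1 had 355 ± 39.9 in Pax5-KO and 838 ± 64.6 in WT (-1.24). The kinases Syk (-0.77), Btk (-0.78) and Lyn (-0.60) fell by less than 2-fold, and the kinase genes Blk and Fyn were not called. The inhibitory receptors Cd22 (-1.52) and Fcgr2b (-2.03) fell as well. Cd72 had 39.6 ± 5.23 in Pax5-KO and 55 ± 5.96 in WT and its call (-0.46, adjusted p = 0.0164) was lost with the deposited scaling (adjusted p = 0.41), without Pax5-KO library 1 (0.0651) and without WT library 2 (0.0664). Rasgrp3, an activator of RAS, went the other way with 2159, 1669 and 1592 in the Pax5-KO libraries, against 84.4, 86 and 85.4 in the WT libraries (log2 fold change 4.38, SE 0.24, adjusted p = 1.35e-08). Vav3, a guanine nucleotide exchange factor of antigen receptor signalling, was also higher (452 ± 36.8 in Pax5-KO and 168 ± 15.4 in WT, log2 fold change 1.42).

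A PAX5 ChIP peak in published data, re-analysed by the authors, lies at the promoter of Cd79a. The window of 200 bases centred on this peak is shown because it sits just upstream of a gene that fell, and it was chosen after the values were seen. It is on build mm10, plus strand, and does not hold the PAX5 motif core searched below, so no letters are capitals. The window at chr7:24897289-24897488 lies before the start site of Cd79a on the plus strand.
Cd79a promoter peak: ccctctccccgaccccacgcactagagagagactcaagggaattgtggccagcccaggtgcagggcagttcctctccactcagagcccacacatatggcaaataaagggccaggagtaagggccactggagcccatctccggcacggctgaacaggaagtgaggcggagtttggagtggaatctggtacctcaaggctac

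Transcription factors of the B lineage mostly fell. Of 31 tested members, 22 were called lower (71.0%, against 24.0% of all genes), 5 higher and 4 were not called. The median log2 fold change was -0.86. With the deposited scaling 15 were lower and 6 higher, and the median was -0.59. Irf4, which acts in pre-B cell differentiation and light-chain rearrangement, had 337, 386 and 338 in the Pax5-KO libraries, against 3168, 3725 and 3932 in the WT libraries (log2 fold change -3.34, SE 0.12, adjusted p = 2.68e-10). Spib (109 ± 10.9 in Pax5-KO and 1134 ± 81.4 in WT, log2 fold change -3.37), Lef1 (203 ± 14.6 in Pax5-KO and 1790.2 ± 126 in WT, -3.14) and Id3 (13.4 ± 2.49 in Pax5-KO and 155 ± 10.1 in WT, -3.45) each fell about as far. Bach2, a repressor that acts at the pre-B checkpoint, had 672 ± 73 in Pax5-KO and 3533 ± 111 in WT (-2.40). Foxo1, which drives Rag transcription, had 561, 653 and 647 in the Pax5-KO libraries, against 2050.2, 2893 and 2854 in the WT libraries (log2 fold change -2.05, SE 0.13, adjusted p = 7.13e-08). Ebf1 had 1407, 1517 and 1382 in the Pax5-KO libraries, against 4217, 4704 and 4655 in the WT libraries (log2 fold change -1.66, SE 0.07, adjusted p = 1.7e-09). Pou2af1, the octamer co-activator, was lower (7387 ± 808 in Pax5-KO and 23278 ± 2375 in WT, -1.66). The E protein gene Tcf3 fell (-1.55), as did Ikzf3 (-1.43), Bcl11a (-1.92) and Ets1 (-1.11). Of the members that rose, Klf3 changed most (364 ± 35.4 in Pax5-KO and 23.7 ± 10.7 in WT, 3.96), followed by Id2, the E protein inhibitor of innate lymphoid cells (36.3 ± 14.8 in Pax5-KO and 7.21 ± 1.67 in WT, 2.12), Mef2c (1.27), Spi1 (0.65) and Runx1 (0.43). Foxp1, Tcf4, Sox4 and Nfkb1 were not called, except Foxp1 (adjusted p = 0.0378) and Tcf4 (0.0123) with the replicate number as a block.

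Genes of V(D)J recombination, which joins antigen receptor gene segments, were mostly lower. Of 17 tested, 10 were called lower (58.8%, against 24.0% of all genes) and 3 higher (17.6%, against 25.9%). Those higher numbered 5 with the replicate number as a block and 5 with the deposited scaling. Rag1, a subunit of the recombinase, had 669.9, 604 and 688 in the Pax5-KO libraries, against 2849.8, 1141 and 1214 in the WT libraries (log2 fold change -1.27, SE 0.28, adjusted p = 0.00208). Its partner Rag2 had 98.1, 122 and 188 in the Pax5-KO libraries, against 1155, 609 and 639 in the WT libraries (log2 fold change -2.54, SE 0.25, adjusted p = 2.84e-06). WT library 1 was the highest for both Rag genes, and no Pax5-KO library overlapped WT. Dntt, the terminal transferase that adds bases at junctions, had 1.21, 0.618 and 0.934 in the Pax5-KO libraries, against 116, 153 and 138 in the WT libraries (log2 fold change -6.16, SE 0.22, adjusted p = 3.5e-10), and Polm, a related polymerase, had 0.326 ± 0.305 in Pax5-KO and 29.6 ± 7.84 in WT (-4.52). The end-joining genes Lig4 (-2.27), Xrcc4 (-1.95) and Dclre1c (-0.80) fell. Xrcc5 (0.41) and Xrcc6 (0.77), the KU subunits, and the polymerase gene Poll (1.23) were higher.

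Surface markers used to stage B progenitors moved in both directions. Of 16 tested, 8 were called lower (50%, against 24.0% of all genes) and 5 higher (31.25%, against 25.9%). Bst1, known as BP-3, fell with Enpep (8.28 ± 2.92 in Pax5-KO and 969 ± 81.9 in WT, log2 fold change -6.75). Ms4a1, which encodes CD20, had 1 read over the Pax5-KO libraries, against 111, 168 and 185 in the WT libraries, lower by a ratio of 2817 (95% exact counting interval 505 to 111310.0). Cd24a fell (log2 fold change -0.999), and the interleukin-7 receptor gene Il7r fell to 929, 750.0 and 800.2 in the Pax5-KO libraries, against 2619, 1894 and 1833 in the WT libraries (log2 fold change -1.34, SE 0.14, adjusted p = 5.03e-06). Kit fell too (111 ± 42.3 in Pax5-KO and 329 ± 86 in WT, -1.59). Higher were Il2ra, the CD25 chain (1330.5 ± 84 in Pax5-KO and 69.6 ± 15 in WT, 4.26), Cd93 (1.15), Ptprc (1.28), Ly6d (2.66) and Cd9, which had 2 reads over WT and was higher by a ratio of 436 (95% exact counting interval 121 to 3607). Spn, which encodes CD43, did not pass the test (642 ± 40.6 in Pax5-KO and 660.4 ± 70.9 in WT).

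Lists of genes named in mouse work as activated or repressed by PAX5 were drawn up from general knowledge, not copied from a source. Earlier results of these data were known by then, so the counts of both lists are descriptions and not a test of PAX5 targets. Of 22 tested genes of the activated list, 18 were called lower in Pax5-KO (81.8%, against 24.0% of all genes), 2 higher and 2 were not called, with a median log2 fold change of -2.47. Beside genes described above, Nedd9, a scaffold of integrin signalling, fell strongly (80.9 ± 11.7 in Pax5-KO and 1498 ± 191 in WT, -4.20), as did the syndecan gene Sdc4 (538 ± 39.6 in Pax5-KO and 1833 ± 56.1 in WT, -1.77) and the complement receptor gene Cr2 (10.5 ± 1.86 in Pax5-KO and 54.6 ± 4.56 in WT, -2.29). The 2 members called higher were the glucocorticoid receptor gene Nr3c1 (748 ± 93.1 in Pax5-KO and 553 ± 54.1 in WT, 0.43) and the cannabinoid receptor gene Cnr2 (40.3 ± 7.80 in Pax5-KO and 25.4 ± 4.28 in WT, 0.64), a count of 1 when Pax5-KO library 1 or 3 or WT library 2 or 3 was left out. Txnip, a brake on glucose uptake, and Fcer2a were not called.

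Of 22 tested genes of the repressed list, 17 were called higher (77.3%, against 25.9% of all genes), 3 lower and 2 were not called, with a median log2 fold change of 2.27. Flt3, the receptor for FLT3 ligand, had 988, 843 and 793 in the Pax5-KO libraries, against 12, 10.3 and 7.29 in the WT libraries (log2 fold change 6.35, SE 0.14, adjusted p = 1.03e-11). Cd28, a co-stimulatory receptor of T cells, had 1329.9, 1639 and 1416 in the Pax5-KO libraries, against 4.36, 11.8 and 12.1 in the WT libraries (log2 fold change 7.24, SE 0.28, adjusted p = 7.14e-10). Notch1 had 2533, 1997 and 1909 in the Pax5-KO libraries, against 434, 473 and 446 in the WT libraries (log2 fold change 2.24, SE 0.12, adjusted p = 9.31e-09). Each of these 3 receptors was higher in every Pax5-KO library, and Flt3 and Cd28 were low in WT while Notch1 was not. Jchain, the joining chain of polymeric antibodies, rose to 11994 ± 1074 in Pax5-KO, against 43 ± 12.4 in WT (8.13). The embigin gene Emb (1330.3 ± 101 in Pax5-KO and 6.20 ± 2.20 in WT, 7.57) and Cd47 (1.81) also rose. The chemokine gene Ccl3 had 135, 112 and 113 in the Pax5-KO libraries, against 0, 1.18 and 0 in the WT libraries, higher by a ratio of 441 (95% exact counting interval 151 to 2141). Csf1r, the receptor for M-CSF, stayed close to 0 with 3.02, 4.02 and 3.27 in the Pax5-KO libraries, against 2.18, 0.394 and 1.66 in the WT libraries. Its call (log2 fold change 0.96, adjusted p = 0.031) was lost with quantile normalization (adjusted p = 0.248), with edgeR (0.0572), with DESeq2 (0.111), and without Pax5-KO library 2 (0.094) or 3 (0.0626) or WT library 2 (0.132). The 3 members called lower were Slamf9 (0.357 ± 0.316 in Pax5-KO and 52.3 ± 20.9 in WT, -5.23), the plasma cell marker Sdc1 (33.2 ± 2.41 in Pax5-KO and 96.1 ± 11 in WT, -1.50) and the glucose transporter gene Slc2a1, described below.

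**Figure D3:**
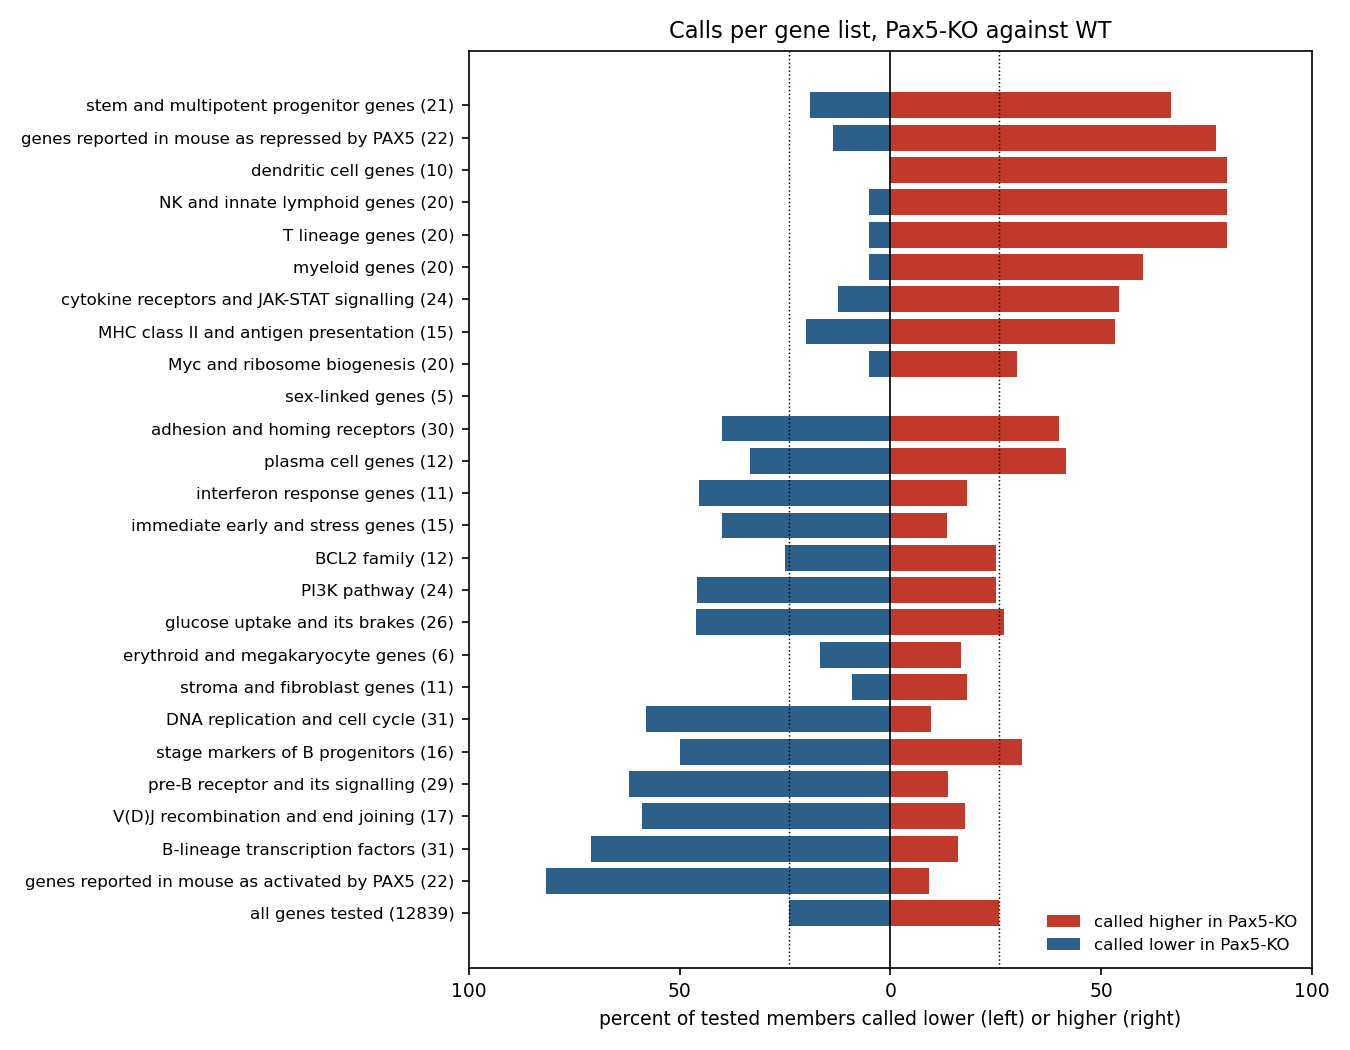
Percent of the tested members of each gene list that were called higher (right, red) or lower (left, blue) in Pax5-KO against WT, with the number tested in parentheses and lists ordered by their median log2 fold change. Dotted lines mark all 12839 genes tested (25.9% higher and 24.0% lower), which also form the bottom row. The lists of stem, dendritic, innate lymphoid, T and myeloid genes lie in the upper part. The lists of B lineage genes lie in the lower part, with the PAX5-activated list lowest, just above the row of all genes.

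Genes of the T lineage rose, without the CD3 chains of the T cell receptor complex. Of 20 tested, 16 were called higher (80.0%, against 25.9% of all genes), 1 lower and 3 were not called. The median log2 fold change was 1.53. Beside Cd28, Notch1 and Il2ra, the transcription factor gene Tox had 229.6, 233 and 252 in the Pax5-KO libraries, against 2.55, 4.73 and 2.82 in the WT libraries (log2 fold change 5.81, SE 0.17, adjusted p = 7.65e-11). The kinase genes Lck (203 ± 15.1 in Pax5-KO and 36.9 ± 9.42 in WT, 2.46) and Zap70 (30.8 ± 4.90 in Pax5-KO and 0.297 ± 0.262 in WT, 4.63), the receptor genes Notch3 (4.38) and Cd27 (3.61) and the surface marker Thy1 (3.21) rose. Tcf7, a transcription factor of T cell commitment, had 11.8 ± 1.04 in Pax5-KO and 3.60 ± 0.986 in WT, and Gata3 had 1.48 ± 0.244 in Pax5-KO and 0.342 ± 0.332 in WT. Bcl11b, Cd3g and Cd4 stayed near 0 in Pax5-KO and were not called, and Cd247, the zeta chain, was lower (-0.34). Of all 26 members, 6 were too low to test, among them Cd3d, Cd3e and Cd8a. The summed level of the 26 was 6290.2 to 6705 in Pax5-KO and 1209.5 to 1292 in WT.

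Genes of natural killer and innate lymphoid cells rose too. Of 20 tested, 16 were called higher (80.0%, against 25.9% of all genes), 1 lower and 3 were not called. The median was 2.07 (2.53 where 2 genes without reads in 1 group take their bound). The summed level of all 24 members was 2384 to 2775 in Pax5-KO and 29.8 to 31.2 in WT. Fcer1g, which is in the list, made up 1456 of it on average in Pax5-KO. Receptor chains led the list. Il18rap, a chain of the interleukin-18 receptor, had 779.8, 634 and 551 in the Pax5-KO libraries, against 5.45, 2.37 and 1.49 in the WT libraries (log2 fold change 7.42, SE 0.27, adjusted p = 4.27e-10). Tyrobp, a signalling adaptor of activating receptors, had 104, 119 and 118 in the Pax5-KO libraries, against 0.727, 0.789 and 0.663 in the WT libraries (log2 fold change 6.05, SE 0.13, adjusted p = 6.64e-12). Il18r1 (91.6 ± 14.8 in Pax5-KO and 1.10 ± 0.435 in WT, 5.47), Il2rb (36.4 ± 12.9 in Pax5-KO and 0.439 ± 0.318 in WT, 4.66) and Klrd1 (61.5 ± 4.31 in Pax5-KO and 6.25 ± 0.409 in WT, 3.11) rose as well. Zbtb16, a regulator of innate lymphocytes with no read in WT, was at least 8.87-fold higher (floor of 3 reads over a group). The effector genes stayed low. Gzma averaged 8.44 in Pax5-KO, higher by a ratio of 46.2 (95% exact counting interval 12.6 to 385), and Nkg7 averaged 9.86 in Pax5-KO and 0.373 in WT. Ncr1, Gzmb and Ifng had no read in Pax5-KO. Klrk1, with no read in Pax5-KO, was at least 9.87-fold lower.

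Stem and multipotent progenitor genes rose in part. Of 21 tested, 14 were called higher (66.7%, against 25.9% of all genes), 4 lower and 3 were not called (median 2.44). Genes of the Hoxa cluster, which are active in stem and progenitor cells, rose where WT had no or few reads. Hoxa9 had 91.1, 95.8 and 90.0 in the Pax5-KO libraries, against 1.09, 0 and 0.497 in the WT libraries (log2 fold change 5.99, SE 0.23, adjusted p = 5.65e-10). Hoxa7 and Hoxa5, with no read in WT, were at least 238-fold and 102-fold higher, and Hoxa10 (5.21) and the HOX partner Meis1 (4.76) rose as well. The fetal RNA-binding gene Lin28b had 1533, 1740.1 and 1462 in the Pax5-KO libraries, against 296, 287 and 287 in the WT libraries (log2 fold change 2.44, SE 0.10, adjusted p = 1.02e-09), and Hmga2, a chromatin protein of the same fetal program, had 270.2 ± 40.6 in Pax5-KO and 11.4 ± 3.51 in WT (4.49). Cd34 rose (27.7 ± 5.27 in Pax5-KO and 0.903 ± 0.164 in WT, 3.90). Kit, Gfi1 (-1.34), Slamf1 (-3.36) and Mycn (-0.41) were lower. Gata2, Hlf and Mecom were too low to test.

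Genes of myeloid and dendritic cells were also more often higher than lower. Of 20 tested myeloid genes, 12 were called higher (60.0%, against 25.9% of all genes), 1 lower and 7 were not called. Their median was 1.04. Cd33, described above, had the largest rise. The granule gene Mpo had 38.4 ± 4.40 in Pax5-KO and 0.121 ± 0.210 in WT, higher by a ratio of 457 (95% exact counting interval 81.8 to 18079). Prtn3, also of granules, had 15.4 ± 2.59 in Pax5-KO and 0.0552 ± 0.0957 in WT, higher by a ratio of 186 (95% exact counting interval 33.2 to 7382). Elane had 1 read over Pax5-KO. The integrin gene Itgam had 26.2 ± 3.09 in Pax5-KO and 6.66 ± 4.67 in WT (2.02), Lyz2, Csf3r, Cd68 and Tlr2 were not called, and S100a8 and S100a9 had no read in either group. The summed level of all 30 myeloid genes was 2022 to 2252 in Pax5-KO and 769 to 897 in WT. Of 10 tested dendritic cell genes, 8 were called higher (80%, against 25.9% of all genes), none lower and 2 were not called. Their median was 2.22, or 2.94 with 1 gene at its bound. Ccr9, a homing receptor of thymus and gut, had 3825, 3616 and 3492 in the Pax5-KO libraries, against 27.3, 16.6 and 17.1 in the WT libraries (log2 fold change 7.45, SE 0.16, adjusted p = 6.64e-12). Runx2 had 1276, 1312 and 1319.9 in the Pax5-KO libraries, against 15.6, 13 and 8.95 in the WT libraries (log2 fold change 6.62, SE 0.16, adjusted p = 1.48e-11). Siglech, a marker of plasmacytoid dendritic cells, was higher by a ratio of 417 (95% exact counting interval 115 to 3448). Itgax averaged 2.46 in Pax5-KO with no read in WT, and was at least 9.27-fold higher, and Batf3, Clec9a and Zbtb46 were too low to test. The 14 dendritic cell genes summed to 5755 to 6039 in Pax5-KO and 237 to 241 in WT. Most of the sum in Pax5-KO came from Ccr9 (mean 3645), Runx2 (1303) and Ly6d (441), so it says little of the other members. Whether a minority of other cells had a part in these rises was not tested.

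Plasma cell genes were called in both directions (5 of 12 higher, 4 lower and 3 not called, median 0.04, or 0.26 with the deposited scaling). The shares were 41.7% higher and 33.3% lower, against 25.9% and 24.0% of all genes. Xbp1, a factor of the secretory program, had 1658, 1596 and 1474 in the Pax5-KO libraries, against 175, 235 and 227 in the WT libraries (log2 fold change 2.90, SE 0.13, adjusted p = 2.43e-09). Prdm1, the master regulator of plasma cells, had 1 read over Pax5-KO and 2 over WT, and Tnfrsf17 was too low to test. Jchain and Cd28 rose as described above, while Sdc1, Slamf7 and Irf4 fell.

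Cytokine receptors and their signalling genes were more often higher. Of 24 tested, 13 were called higher (54.2%, against 25.9% of all genes), 3 lower and 8 were not called (median 0.61). The common gamma chain gene Il2rg had 1263 ± 82.9 in Pax5-KO and 654 ± 30.6 in WT (log2 fold change 0.95), and its kinase gene Jak3 had 254 ± 23.7 in Pax5-KO and 119 ± 11.7 in WT (1.08). Il4ra (1.81), Socs1 (2.33), Socs2 (0.60), Stat5a (0.66) and the kinase gene Pim2 (1.70) rose. The members called lower were Il7r, Kit and Tnfrsf13c, the BAFF receptor (149 ± 3.94 in Pax5-KO and 703 ± 86.9 in WT, -2.22). Pim1, Cish, Jak1 and Stat5b did not pass the test.

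Of 24 genes of the PI3K pathway, 11 were called lower (45.8%, against 24.0% of all genes), 6 higher (25.0%, against 25.9% of all genes) and 7 were not called (8 lower and 8 higher with the deposited scaling, where the median of -0.12 turned to 0.15). Mtor, the kinase at the end of the pathway, had 725, 774 and 783 in the Pax5-KO libraries, against 4417, 4596 and 4559 in the WT libraries (log2 fold change -2.57, SE 0.07, adjusted p = 3.28e-11). The 3 libraries of each group lay close together and far from the other group. The adaptor gene Gab1 (2.62 ± 0.645 in Pax5-KO and 119 ± 37.7 in WT, -5.02) and the phosphatase gene Inpp4b (108 ± 12.6 in Pax5-KO and 712 ± 72.8 in WT, -2.72) fell. Irs2, another adaptor gene, had 1 read over Pax5-KO and was lower by a ratio of 357 (95% exact counting interval 63.4 to 14154). Pik3r1, the regulatory subunit, rose (3516 ± 263 in Pax5-KO and 942 ± 71.5 in WT, 1.90), as did the catalytic subunit genes Pik3cg (0.94) and Pik3cb (1.53). Rictor, Tsc2, Akt1 and Inpp5d were not called.

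Of 12 tested genes of the BCL2 family, 3 were higher (25%), 3 lower (25%) and 6 were not called. These shares were close to the 25.9% higher and 24.0% lower of all genes. With the replicate number as a block 5 were lower. With the deposited scaling 5 were higher and 1 lower, and the median of -0.02 turned to 0.25. Without WT library 1 the count of higher members was 1. Mcl1 was called lower (-0.23), and its value was 0.04 with the deposited scaling (adjusted p = 0.797). The survival gene Bcl2 had 1914, 1874 and 1951 in the Pax5-KO libraries, against 352, 427 and 414 in the WT libraries (log2 fold change 2.27, SE 0.12, adjusted p = 7.62e-09), and its relative Bcl2l1, which encodes BCL-XL, had 17.6 ± 4.24 in Pax5-KO and 148 ± 11.9 in WT (-3.02). Bcl2l11, Pmaip1 and Bbc3, which promote cell death, were not called, except Bbc3 with the replicate number as a block (adjusted p = 0.0281).

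Adhesion and homing receptors changed in equal numbers. Of 30 tested, 12 were called higher (40%, against 25.9% of all genes) and 12 lower (40%, against 24.0%). The higher ones included Ccr9, Emb, Cxcr3 and Cx3cr1, and the last 2 had no read in WT and were at least 180.4-fold and 74.9-fold higher. Integrin alpha 5 (Itga5) rose (165 ± 24.5 in Pax5-KO and 38.2 ± 0.958 in WT, 2.08). Cd55, a complement regulator, had 0.302, 0.618 and 0.0934 in the Pax5-KO libraries, against 272, 234 and 223 in the WT libraries (log2 fold change -7.52, SE 0.22, adjusted p = 7.65e-11). Cxcr4, which holds progenitors in the bone marrow, had 236 ± 29.8 in Pax5-KO and 537 ± 64.9 in WT (-1.18), and Cd44 (-1.81), Itga6 (-1.67), Ccr7 (-2.33) and S1pr1 (-1.89) fell. Itga4 and Selplg were not called.

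Antigen presentation genes of class I rose. H2-K1 had 2996, 2623 and 2459 in the Pax5-KO libraries, against 227, 295 and 305 in the WT libraries (log2 fold change 3.29, SE 0.12, adjusted p = 3.13e-10), although reads can be shared between the alike H2 genes. B2m, the class I light chain with no close copy, had 13333, 14289 and 12634 in the Pax5-KO libraries, against 4856, 5340.2 and 4669.9 in the WT libraries (log2 fold change 1.44, SE 0.08, adjusted p = 1.95e-08). Nlrc5, the transactivator of class I genes, had 589 ± 38.2 in Pax5-KO and 100.4 ± 4.31 in WT (2.54), and the peptide transporter gene Tap1 had 191 ± 6.15 in Pax5-KO and 89 ± 9.16 in WT (1.09). Of the class II genes, H2-Ob (18 ± 2.05 in Pax5-KO and 297 ± 20.2 in WT, -3.97) fell, H2-Ab1 had no read in Pax5-KO and was at least 38.8-fold lower, and H2-Oa (30.8 ± 2.63 in Pax5-KO and 20.3 ± 1.94 in WT, 0.58), H2-DMa (1.88) and H2-DMb2 (3.00) rose. The lipid-presenting Cd1d1 fell (-1.72). Ciita, the class II transactivator, averaged 1.15 in Pax5-KO and 1.58 in WT and was not called. In all, 8 of 15 were higher (53.3%, against 25.9% of all genes) and 3 lower (20%, against 24.0%).

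Of the cell cycle genes, 18 of 31 were called lower (58.1%, against 24.0% of all genes) and 3 higher (9.68%, against 25.9%). The other 10 were not called, and the median was -0.34. With the deposited scaling 9 were lower and the median was -0.06. Mki67, a marker of cycling cells, had 12552, 13516 and 12433 in the Pax5-KO libraries, against 30683, 27786 and 26609 in the WT libraries (log2 fold change -1.14, SE 0.11, adjusted p = 2.65e-06). E2f2, an S phase factor, had 163, 181 and 204 in the Pax5-KO libraries, against 1528, 1467 and 1485 in the WT libraries (log2 fold change -3.03, SE 0.09, adjusted p = 7.63e-11), and Ccnd3, the cyclin tied to pre-B cell proliferation, had 400.1 ± 107 in Pax5-KO and 1880.3 ± 233 in WT (-2.26). Rrm2 (-1.31) and Top2a (-0.88) fell, and the Mcm genes of the replicative helicase were not called except Mcm3 (-0.30) and, with the replicate number as a block, Mcm7 (adjusted p = 0.0229). Cdk6 rose (20253 ± 1456 in Pax5-KO and 5939 ± 1165 in WT, 1.79), as did the inhibitor gene Cdkn1a (795 ± 62.1 in Pax5-KO and 185 ± 18.4 in WT, 2.10). Cdk4 was also higher (0.33).

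Of 26 tested genes of glucose uptake and glycolysis, 12 were called lower (46.2%, against 24.0% of all genes) and 7 higher (26.9%, against 25.9% of all genes), with 4 lower under the deposited scaling, where the median of -0.19 turned to 0.08, and 7 lower without Pax5-KO library 1 or 2 or WT library 3. Slc2a3, a glucose transporter gene, had 286, 291 and 285 in the Pax5-KO libraries, against 49.1, 68.2 and 67 in the WT libraries (log2 fold change 2.22, SE 0.16, adjusted p = 2.12e-07), and Hk1 (135 ± 12 in Pax5-KO and 54.3 ± 7.36 in WT, 1.30) and G6pdx (0.69) rose. Slc2a1 had 239.6, 248 and 308 in the Pax5-KO libraries, against 287, 331 and 377 in the WT libraries. These groups overlapped, and the call (log2 fold change -0.32, adjusted p = 0.0448) was lost with the deposited scaling (adjusted p = 0.86), without Pax5-KO library 1 (0.149) or 2 (0.137), without WT library 2 (0.103) or 3 (0.187), and without any 1 of the Ebf1-KO libraries (0.0505 to 0.0654). The enzymes Pfkp (-1.29), Ldha (-0.81) and Pgk1 (-0.80) fell.

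Of 20 tested genes of Myc and ribosome biogenesis, 6 were higher (30%, against 25.9% of all genes), 1 lower (5%, against 24.0%) and 13 not called. Those higher numbered 10 with the replicate number as a block, and 3 without Pax5-KO library 3 or WT library 1. Myc had 3081, 3920.0 and 4937 in the Pax5-KO libraries, against 1310.2, 2944 and 3005 in the WT libraries. The lowest WT value was of library 1, and the call (log2 fold change 0.79, adjusted p = 0.049) was lost without it (0.206), without Pax5-KO library 2 (0.104) or 3 (0.162), and without Ebf1-KO library 2 (0.0602) or 3 (0.0514). Ncl, Npm1 and Fbl were not called.

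The remaining lists were of interferon response genes (5 of 11 lower, 2 higher, median 0.01, which turned to -0.13 with quantile normalization and was 0.28 with the deposited scaling), immediate early and stress genes (6 of 15 lower, 2 higher, median -0.01, which turned to 0.25 with the deposited scaling), stroma genes (1 of 11 lower, which was Acta2, and 2 higher, which were Pdgfrb and Thy1) and erythroid and megakaryocyte genes (1 of 6 lower, 1 higher). With the replicate number as a block, 4 immediate early genes were higher, 5 stroma genes were lower, 2 erythroid and megakaryocyte genes were lower, and the stroma genes that became lower were Fn1, Col1a1, Cxcl12 and Sparc, all highest in library 2 of each group. Immediate early and stress genes called lower numbered 3 without Pax5-KO library 2 or 3, those called higher 4 without Ebf1-KO library 1, and stroma genes called lower 3 without Pax5-KO library 2. The erythroid and megakaryocyte gene called lower, Itga2b, was lost without Pax5-KO library 1 or 2, any WT library, or Ebf1-KO library 2 or 3. In the main fit, shares called lower were 45.5% (interferon), 40% (immediate early), 9.09% (stroma) and 16.7% (erythroid and megakaryocyte), against 24.0% of all genes. Shares called higher were 18.2%, 13.3%, 18.2% and 16.7% in the same order, against 25.9%. The summed level of the 16 stroma genes was 2223 to 2442 in Pax5-KO and 2101 to 2155 in WT. Egr1 had 11.2 ± 4.23 in Pax5-KO and 90.3 ± 22.2 in WT (log2 fold change -2.94), Ddit4 had 11.9 ± 5.62 in Pax5-KO and 55.1 ± 5.35 in WT (-2.19) and Gbp2 had 3.46 ± 0.381 in Pax5-KO and 64 ± 11.1 in WT (-3.86). Fos, Jun and Junb were not called, except Fos with the replicate number as a block (adjusted p = 0.0317). Of 11 hepatocyte genes 1 was tested, Hnf4a, and it was not called.

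Set directly against Ebf1-KO cells, Pax5-KO cells had 2522 genes called higher (19.6%) and 2629 lower (20.5%), together 40.1% of those tested. Of the 3324 genes called higher than WT, 1038 were also higher than Ebf1-KO, 831 were lower than Ebf1-KO and 1455 were not called between the knock-outs. Of the 3075 called lower than WT, 620 were higher and 753 lower than Ebf1-KO, and 1702 were not called. Both comparisons share the Pax5-KO libraries. As a check of the labels, Ebf1 averaged 1435 in Pax5-KO, 1338 in Ebf1-KO and 4525 in WT, so its reads over all exons did not tell the knock-outs apart (adjusted p = 0.3), while Pax5 averaged 103 in Pax5-KO and 11.9 in Ebf1-KO. The groups also differed in sex-linked transcripts, since Xist averaged 17.7 in Pax5-KO and 41927 in Ebf1-KO, and the Y-linked Ddx3y averaged 905 in Pax5-KO and 1.36 in Ebf1-KO, so genotype and sex cannot be told apart between them.

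The B lineage genes Pou2af1 and Igll1 headed the 10 largest rises over Ebf1-KO among genes also called against WT. The other members of these 10 were called higher in Pax5-KO than in WT. Pou2af1 had 6482, 7641 and 8037 in Pax5-KO, 9.82, 10.3 and 7.14 in Ebf1-KO and 20651, 25271 and 23912 in WT (log2 difference 9.53, SE 0.13, adjusted p = 2.53e-13 for Pax5-KO minus Ebf1-KO). Igll1 averaged 4146 in Pax5-KO and 8.25 in Ebf1-KO (8.80). Both were below WT in Pax5-KO and near 0 in Ebf1-KO. The same order held for Erg, an ETS factor gene (1151, 1202 and 1406 in Pax5-KO, 5.17, 4.60 and 2.33 in Ebf1-KO and 3002, 2248 and 2240.5 in WT), and Foxo1 (4.29). Rasgrp3 had 2159, 1669 and 1592 in Pax5-KO, 6.46, 2.83 and 2.48 in Ebf1-KO and 84.4, 86 and 85.4 in WT (log2 difference 8.60, SE 0.24, adjusted p = 6.9e-11), by far the highest in Pax5-KO. Some of the 10 largest differences were of genes high in Pax5-KO and near 0 in both Ebf1-KO and WT. Slc6a15 averaged 654 in Pax5-KO and 1.17 in Ebf1-KO. The junction gene Tjp1 averaged 476 in Pax5-KO and 0.657 in Ebf1-KO, and the dystrophin gene Dmd 319 in Pax5-KO and 0.135 in Ebf1-KO. Blnk, Bach2, Ebf1, Spib, Fcer1g, Cd28 and Mtor were called against WT and were not called between the knock-outs. Mtor, for one, averaged 761 in Pax5-KO, 753 in Ebf1-KO and 4524 in WT.

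Progenitor and innate lymphoid genes were lower in Pax5-KO than in Ebf1-KO. Cd34 had 32.3, 21.9 and 28.9 in Pax5-KO, 1940.4, 2068 and 1911 in Ebf1-KO and 1.09, 0.789 and 0.829 in WT (log2 difference -6.12, SE 0.16, adjusted p = 4.23e-11). Sox6, a SOX transcription factor gene, averaged 1.20 in Pax5-KO and 1409 in Ebf1-KO (-9.35), the macrophage marker Adgre1 2.70 in Pax5-KO and 513 in Ebf1-KO (-7.15), and the troponin gene Tnni1 1.57 in Pax5-KO and 1197 in Ebf1-KO (-8.92). Of the innate lymphoid list, 18 of 20 were called lower in Pax5-KO than in Ebf1-KO and none higher (median -3.54). Of the T lineage list, 12 of 20 were lower and 4 higher (median -1.30). Of all genes tested, 20.5% were lower and 19.6% higher in this comparison, so the share of T lineage genes called higher was close to that of all genes. Bcl11b had 0, 0 and 0.560 in Pax5-KO, 168, 158 and 149 in Ebf1-KO and 0, 0 and 0.331 in WT, near 0 in Pax5-KO and WT alike. Thy1 averaged 12.5 in Pax5-KO and 455 in Ebf1-KO (-5.12), while Il2ra (3.24), Notch1 (1.16) and Hes1 (5.62), a NOTCH target, were higher in Pax5-KO.

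**Figure D4:**
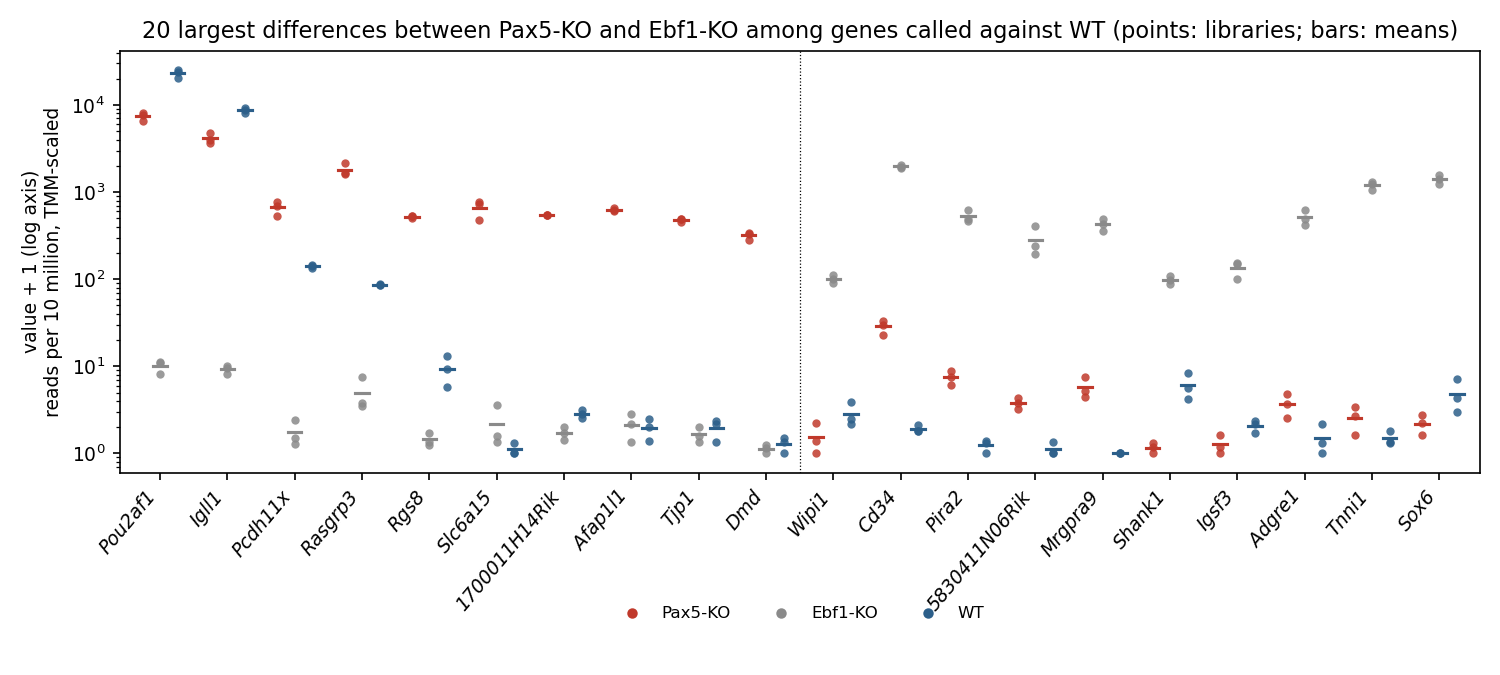
Value + 1 (reads per 10000000, TMM-scaled, log axis) in each library of Pax5-KO, Ebf1-KO and WT for the 10 largest positive (left of the dotted line) and 10 largest negative (right) differences of Pax5-KO minus Ebf1-KO among genes also called against WT, with points for libraries and bars for means. Pou2af1 and Igll1 are high in Pax5-KO and WT and low in Ebf1-KO, whereas Tjp1 and Dmd are high in Pax5-KO and near 0 in the other groups.

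PAX5 ChIP peaks from the published data were assigned by the authors to the gene with the nearest start site. Of 6562 PAX5 peaks, 5033 were without EBF1 and 1529 overlapped EBF1 peaks. Genes called lower in Pax5-KO had at least 1 such peak in 32.3% of cases (994 of 3075), genes called higher in 25.0% (830 of 3324), genes not called in 16.8% (1082 of 6440) and all tested genes in 22.6%. Among genes over 8-fold lower the share was 56.5% (156 of 276), and among those over 8-fold higher 32.3% (164 of 507). With peaks within 10 kb of the start site alone, the shares were 15.5% of lower, 10.6% of higher and 7.39% of uncalled genes. These shares are descriptions with no test. A set of 42 genes of B cell identity, of PAX5 targets and of growth control was chosen for a closer look at chromatin. Of the 27 of them called lower, 24 had a PAX5 peak, among them Cd79a, Blnk, Rag1, Rag2, Irf4 and Lef1, and of the 12 called higher 7 had a peak, among them Flt3, Cd28, Ccr2, Xbp1 and Bcl2.

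Accessibility at PAX5 peaks was lower in Pax5-KO than in WT whichever way the gene moved, and about as low in Ebf1-KO. Median ATAC tags per peak, scaled by the authors to 10000000 tags per library, were 2.92 to 3.17 in Pax5-KO and 9.97 to 15.03 in WT at peaks of genes called lower. At peaks of genes called higher they were 3.48 to 3.88 in Pax5-KO and 8.55 to 11.1 in WT. At peaks of uncalled genes they were 3.04 to 3.18 in Pax5-KO and 7.69 to 11.1 in WT. Ebf1-KO medians at the same peaks were 2.73 to 3.03 (genes called lower), 3.5 to 3.84 (higher) and 3.12 to 3.33 (uncalled). The low signal was thus not particular to Pax5-KO, and sites without a PAX5 peak were not compared. At 4368 of the 6562 peaks (66.6%) every Pax5-KO library was below every WT library. Among peaks of the chosen 42 genes this was so for 49 of 57 at genes called lower and 7 of 9 at genes called higher.

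**Figure D5:**
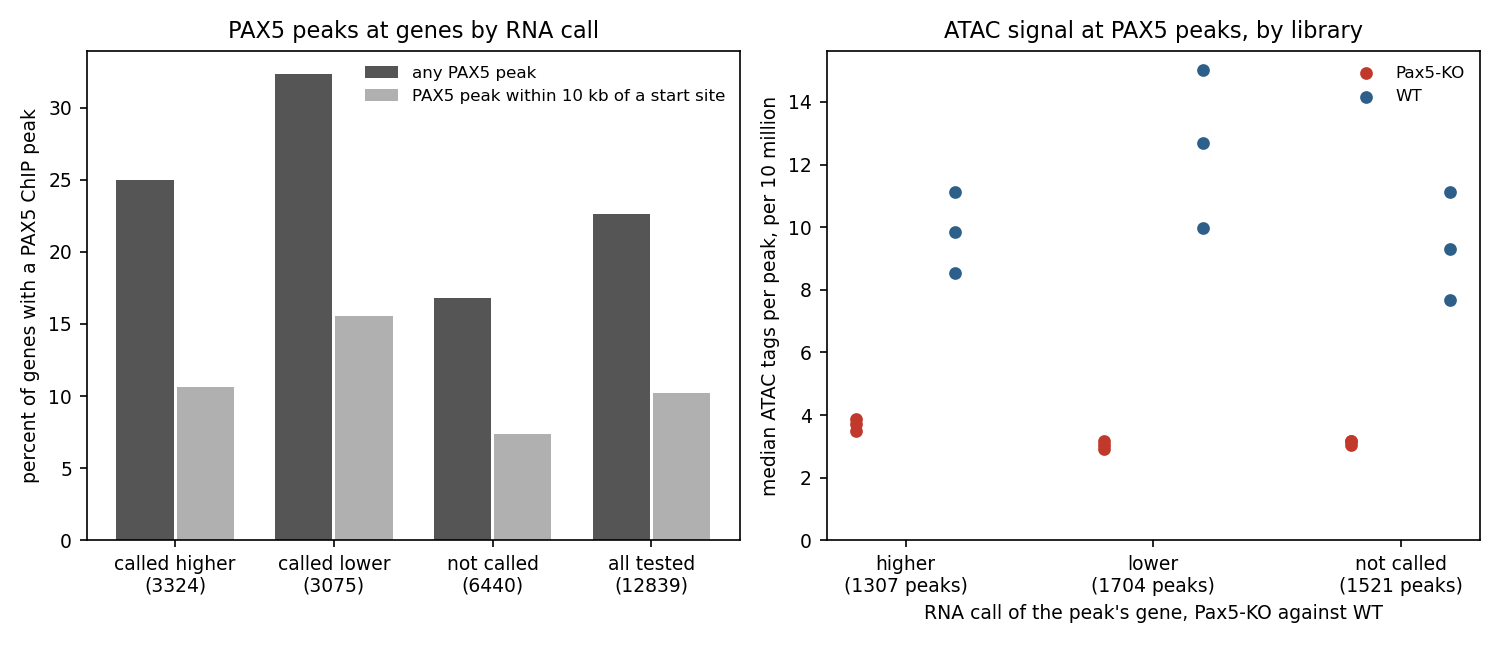
Left, the percent of genes with a PAX5 ChIP peak (any, dark; within 10 kb of the start site, light) by RNA call in Pax5-KO against WT. Right, the median ATAC signal per PAX5 peak in each library, with Pax5-KO left of WT, by the call of the peak's gene; all Pax5-KO medians, at most 3.88, lie below all WT medians, at least 7.69.

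The core of the PAX5 paired-domain motif was sought as GCGTGAC or GCATGAC on both strands in the 200 bases centred on each peak. It was found in 11.4% of PAX5 peaks (751 of 6562), in 12.6% of those without EBF1 and 7.72% of those with it, and in 2.52% of 7810 peaks bound by EBF1 and not PAX5. The match is a description of these letters and not of binding. Among peaks of the 42 genes, 4 of 57 at genes called lower and 1 of 9 at genes called higher held the core. The genes with such a peak and the largest changes were Foxo1, Kit and Sdc1, called lower, and Xbp1, called higher. Their windows are shown because they pair a changed gene with the motif, on build mm10, plus strand, with the core or its reverse complement in capitals.
Foxo1, chr3:52212293-52212492: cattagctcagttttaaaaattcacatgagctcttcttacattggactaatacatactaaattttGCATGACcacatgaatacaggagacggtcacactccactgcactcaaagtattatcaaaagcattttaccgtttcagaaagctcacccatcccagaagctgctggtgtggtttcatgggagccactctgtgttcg
Kit, chr5:75604656-75604855: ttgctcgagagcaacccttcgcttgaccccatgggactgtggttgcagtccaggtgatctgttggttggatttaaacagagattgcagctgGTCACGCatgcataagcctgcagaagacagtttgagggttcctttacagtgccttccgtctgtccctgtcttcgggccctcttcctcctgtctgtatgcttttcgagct
Sdc1, chr12:8829811-8830010: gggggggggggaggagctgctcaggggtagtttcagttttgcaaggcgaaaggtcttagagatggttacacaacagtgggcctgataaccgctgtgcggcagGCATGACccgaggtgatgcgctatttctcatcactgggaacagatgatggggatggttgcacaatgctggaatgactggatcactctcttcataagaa
Xbp1, chr11:5512395-5512594: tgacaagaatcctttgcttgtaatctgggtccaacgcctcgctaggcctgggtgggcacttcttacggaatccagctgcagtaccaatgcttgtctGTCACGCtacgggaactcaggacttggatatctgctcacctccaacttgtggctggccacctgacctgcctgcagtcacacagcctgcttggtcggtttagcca

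The Foxo1 peak is intergenic, at -55945 bp from the start site, and had ATAC signals of 1.41, 0.270 and 1.74 in Pax5-KO, against 5.88, 6.27 and 3.88 in WT. The Kit peak lies in intron 1, at 29764 bp from the start site, with an authors' peak score of 642, and had 2.82, 1.06 and 2.17 in Pax5-KO, against 5.23, 3.13 and 4.40 in WT. No Pax5-KO library overlapped WT at either peak. The intergenic Sdc1 peak, at 58514 bp from the start site, had 2.12, 1.33 and 1.30 in Pax5-KO, against 1.96, 1.14 and 0.520 in WT, and the intergenic Xbp1 peak, at -8147 bp from the start site, had 7.05, 7.42 and 3.48 in Pax5-KO, against 5.23, 3.42 and 4.92 in WT. At both of these the groups overlapped.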

How the data were processed

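Per the labels' protocols, the RNA was amplified with a NuGEN Ovation Ultralow kit and sequenced for 76 cycles. Reads were aligned with TopHat (RNA) or Bowtie2 (ATAC) to mm10 and counted with HOMER, per the submitters' processing notes; none of the sources used here gives versions or says whether counting used strand, so reads of overlapping antisense genes cannot be told apart. The authors deposited the RNA signal as exon reads per gene, scaled to 10000000 mapped reads, per the file headers. They deposited the ATAC signal, which is the coverage of each ChIP peak in tags scaled to 10000000 tags per library, and a score for each peak. The authors' deposited comparison tables hold log2 fold changes and adjusted p-values per transcript, and which of edgeR or DESeq2 made them is not stated.

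The value of 1 read was recovered for each RNA library, and 100% of values came out whole within 0.1 reads. Libraries were rescaled by TMM (edgeR 4.0.16), genes with low counts were removed with edgeR's filterByExpr, and log2(value + 1) was fitted with limma 3.58.1 (trend) in all 9 RNA libraries with 1 mean per genotype, in R 4.3.3. Benjamini-Hochberg adjusted p-values under 0.05 made a call, and other p-values named beside edgeR or DESeq2 come from these tools on recovered reads. Tested on simulated data with 200 changed genes among 12618, the fit called 47.8% of 1.5-fold, 72.7% of 2-fold and 97.0% of 4-fold changes. Of its calls, 7.69% were false. A far larger share of genes was called in the data (49.8%), so these rates need not hold there. Intervals of ratios are 95% and cover counting error only, as does the floor of 3 reads over a group, which is 0.174 in Pax5-KO and 0.265 in WT.

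The titles number the libraries of each group. Deviations from the group means were correlated between Pax5-KO and WT libraries of the same number at 0.299, 0.209 and 0.277. Between libraries of different number the values were -0.242 to -0.033. Libraries of the same number thus shared some variation, and what the number stands for is not given. Library 3 had the most mapped reads in each group (89.1 M in Pax5-KO, 63.1 M in WT and 58.0 M in Ebf1-KO). The fit without the replicate number as a block is the main one, which leaves this shared variation in the spread. It called 6399 genes against WT, and the blocked fit 7377. The blocked value is given where it changes a call. Peak sequences were read from the GRCm38.p6 genome, which is mm10. Of 23811 transcripts in the gene table that were matched to RefSeq, 97.2% lay inside the RefSeq gene that lists the same transcript.

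Named genes are a set of 42 chosen genes, the 15 largest rises and 15 largest falls among called genes that do not overlap between groups and average at least 50 in the higher group, up to 6 members of each list with the largest change, any other member with its values, and the 10 largest differences each way against Ebf1-KO. The genes, lists and tests were chosen with earlier results of these data known. Values of a few of the genes that this rule names are not reported here, although list counts include them.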

Additional observations from a re-analysis of the deposited data

How the results depend on the processing

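Scaling mattered most. With the scaling of the deposited table, genes lower in Pax5-KO than in WT numbered 1525 in place of 3075, and Mcl1 had a log2 fold change of 0.042 in place of -0.23. The other counts of called genes in both comparisons moved by less than 1.5 times under 10 other settings of scaling, pseudocount, filter, tool, samples or replicate block. With the replicate block 3813 genes were higher and 3564 lower than in WT, and all 30 list members or named genes whose call changed gained one. Leaving out 1 library at a time gave 3037 to 3431 genes higher and 2708 to 3135 lower. Without a filter 18108 genes were tested, and 3486 were higher and 3325 lower. edgeR called 3350 higher and 3051 lower and DESeq2 3355 and 3092. Among genes called higher, lower and all tested genes, the shares with a PAX5 peak were 10.6%, 15.5% and 10.2% with peaks within 10 kb, and 20.5%, 27.2% and 19.0% with peaks bound by PAX5 and not EBF1. The motif core was found in 3.21% of EBF1-only peaks when whole peaks were searched. Of 175 named genes tested, 172 were called in the main fit, against 49.8% of all genes tested. Those outside the set of chosen genes were picked from called genes only, so this count was largely fixed by the choice.

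With 3 libraries a group, 47.8% of 1.5-fold and 72.7% of 2-fold changes were called in simulated data, so an uncalled gene is not shown to be equal. Genes near 0 are limited by depth, and ratios from 1 to 3 reads have wide intervals. Culture, sex and genotype of the Ebf1-KO libraries cannot be told apart. The ChIP data are of other samples than the RNA.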
